A study of Solanum lycopersicum with 8 samples.

Results

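The genes described here are 345 of the 34725 tomato (Solanum lycopersicum) genes in the deposited count tables. They were chosen by measured values: a summed raw count of at most 8 over 4 libraries of trichome gland cells, and at least 5 CPM in every one of 4 leaf libraries. CPM are read counts scaled to the gene total of their library. They made up 0.993% of all genes and 2.66% of the 12953 genes that reached 5 CPM in every leaf library, called leaf genes below. The rule used both tissues, so the difference between gland cells and leaf is a description of the members and is not tested. Exchanging the tissues in the rule gave 19 genes, 0.171% of the 11086 genes at 5 CPM or more in every trichome library. The scraped leaves still held gland transcripts, with 3 terpenoid genes of gland cells summing to between 13.45 and 111.3 CPM per leaf library. The part of remaining trichome material in this low number was not tested.

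The trichome libraries came from isolated gland cells of type VI trichomes, short-stalked leaf hairs with a head of secretory cells, and carry the genotype label complemented line #4. The leaf libraries came from leaves of which the trichomes had been scraped off by hand, and carry the genotype label af mutant. All plants were of cultivar M82, an inbred tomato, and grew for 5 weeks in pots in a chamber at 28 °C and 250 µE of light. There were 4 collections, each with 1 library per tissue. The labels' protocols take the scraped leaves from the plants of the trichome preparation, which conflicts with the 2 genotype labels. With genotypes as labelled, a difference of genotype and one of tissue cannot be told apart in any value below. The labels do not say how many plants were pooled in a collection, nor what transgene the complemented line carries.

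A leaf blade holds epidermis with stomata, photosynthetic mesophyll and veins with xylem and phloem, and young blades also hold dividing cells. Gland cells of type VI trichomes are a single specialised epidermal type that makes terpenoids and other defence compounds. In bulk RNA such as this, fewer cells of a type and less RNA per cell cannot be told apart.

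Gene totals were 24596280 to 26514416 counts per trichome library and 19209754 to 34941715 per leaf library. A gene without any count could still have up to 3 counts' worth of reads, which is 0.113 to 0.122 CPM in a trichome library, 0.0859 to 0.156 CPM in a leaf library and 0.0289 CPM over the pooled trichome libraries. Limits and intervals given here take in counting error alone, because PCR copies of a molecule cannot be recognised in these reads. Log CPM correlated at 0.956 to 0.979 between trichome libraries, at 0.922 to 0.970 between leaf libraries and at 0.500 to 0.576 across tissues. The 3 terpenoid genes fixed as gland markers summed to between 8788 and 12260 CPM per trichome library and to between 13.4 and 111.3 CPM per leaf library. The 3 mesophyll markers summed to between 1253 and 1368 CPM per trichome library and to between 19910 and 23380 CPM per leaf library, and none of them was at 0 in gland cells. The photosynthesis gene CAB4, which encodes a chlorophyll-binding protein, stood at 9.80% of its leaf level in gland cells, and RBCS-2A, for the small subunit of Rubisco, at 5.86%. The third marker, Solyc07g056540, listed as a glycolate oxidase gene without a symbol in the RefSeq table, averaged 3.68 ± 0.663 CPM in gland cells and 3685 ± 679.2 CPM in leaf (SD, n = 4 each), 0.0999% of leaf. The 3 markers thus differed widely in how much of their leaf level gland cells held. Whether these reads came from gland cells or from leaf tissue carried along was not tested.

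The members together had 306, 256, 332 and 276 counts in trichome libraries 1 to 4, against 162072, 183585, 235627 and 260347 counts in leaf libraries 1 to 4. Summed over members this was 11.3 ± 0.996 CPM in gland cells and 7967 ± 404 CPM in leaf (mean ± SD, n = 4 each). The gland sum was 0.137%, 0.131%, 0.156% and 0.141% of the leaf sum in collections 1 to 4. The limits of the rule keep this ratio low in every collection, so its evenness is a description of the choice.

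"Silent" means at or near the limit of detection here, not an absence of all reads. Of the 345 members, 45 had no count in any trichome library, and the median member had 3 counts over all 4. In single libraries, 176, 185, 184 and 217 members were at 0 in trichome libraries 1 to 4, and 5, 3, 6 and 7 members had 5 counts or more. No member exceeded 8 counts in a single trichome library, and 331 had no count in at least 1 of them. The limit of 8 summed counts stood for 0.0771 CPM over the pooled libraries. It is a limit on reads, so a long gene reaches it at fewer transcripts than a short one.

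The limit did not fall in a gap of the distribution. Members with 0 to 8 summed counts numbered 45, 46, 54, 41, 45, 37, 33, 22 and 22, and another 25 leaf genes had 9 counts and 143 had 9 to 16. Just inside the limit, at 8 counts, stood Solyc03g097590 with 140.2 CPM in leaf, Solyc08g079200 with 72.2 and Solyc09g072820 with 62.3. Just outside it, at 9 counts, stood Solyc10g052490 with 100.3 CPM in leaf, Solyc08g063040 with 88.2 and Solyc05g006850 with 73.3. On the leaf side, the lowest leaf library held Solyc05g007790 at 5.00 CPM, and Solyc03g093330 and Solyc04g006960 at 5.04 CPM, which are members. Solyc07g042400 and Solyc08g014030, at 4.99 CPM in their lowest leaf library, and Solyc03g031530, at 4.98 CPM, missed it. Altogether 83 genes with at most 8 trichome counts had a leaf minimum between 4 and 5 CPM.

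**Figure D1:**
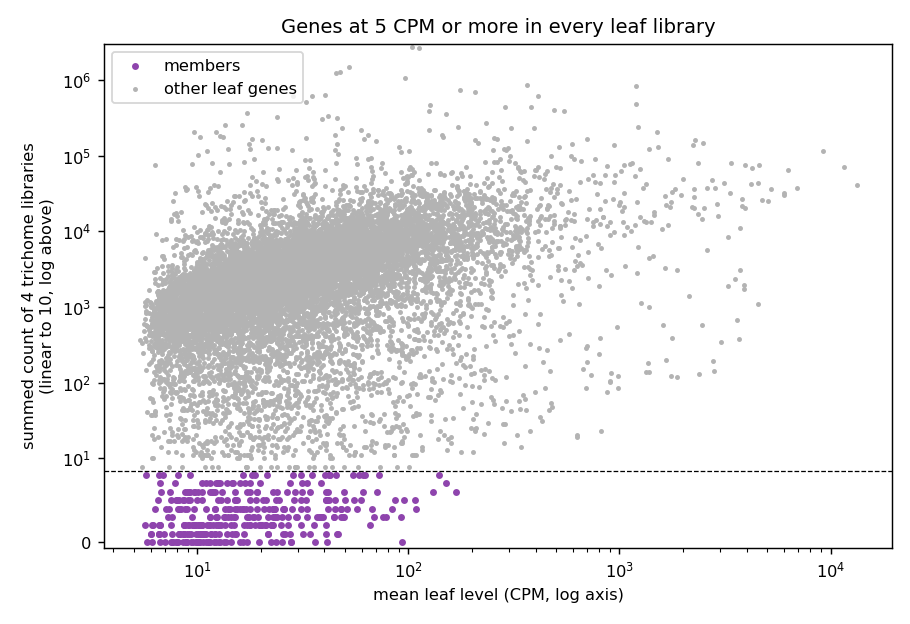
Summed count over the 4 trichome libraries (vertical axis, linear at the foot and log above) against mean leaf level in CPM (horizontal, log axis), 1 point per leaf gene, with the 345 members in colour under the dashed limit of 8 counts. The members lie between 5.65 and 168.5 CPM in leaf, and other leaf genes reach down to the limit without a gap.

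In leaf the members averaged 5.65 to 168.5 CPM, with a median of 14.95 CPM, against a median of 27.3 CPM and a maximum of 13290 CPM in the other leaf genes. The share of leaf genes that were members fell along the scale of leaf level. It was 6.12% at 5 to 10 CPM (88 of 1439 genes), 3.74% at 10 to 20 CPM (130 of 3473), 2.25% at 20 to 50 CPM (100 of 4442) and 1.06% at 50 to 100 CPM (21 of 1979). Only 6 of 971 leaf genes at 100 to 200 CPM were members (0.618%), and none of the 649 genes at 200 CPM or more was. A limit on raw counts is a smaller percentage of a high leaf level, so this order is partly set by the rule. CPM are not per length, and their order is one of reads and not of transcripts.

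Relative to leaf, pooled gland cells held a median of 0.147% of a member's leaf level, with a highest value of 1.36%. In the other leaf genes the median was 82.9%, with quartiles of 35.4% and 143.4%. In edgeR's quasi-likelihood test over all 20409 tested genes, 345 of the 345 members were called lower in gland cells at a Benjamini-Hochberg adjusted p under 0.05, where 38.5% of all tested genes were called lower. The rule used that contrast, so nothing is read from this count.

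The members that could be named are regulatory genes, since the lists searched hold mostly such genes. The files give IDs without names, and 5 members from short lists of published IDs passed a position check against a RefSeq table. They belong to the KNOX, YABBY, Golden2-like and FT families, which encode regulators of leaf form, of plastids or of flowering.

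T6 (Solyc02g081120, chromosome 2), also known as TKN2, is a KNOX homeobox gene. KNOX genes keep meristem cells undifferentiated and, in tomato, prolong the stage at which a leaf forms leaflets. T6 had no count in trichome libraries 1 to 4, against 15.5, 16.9, 17.9 and 7.70 CPM in leaf libraries 1 to 4. Its leaf mean was 14.5 ± 4.64 CPM (SD, n = 4), which makes gland cells at least 501.3-fold lower, computed against 3 counts over the pooled trichome libraries. Leaf library 4 was the lowest of the 4, as it was for 44.1% of members and 52.2% of other leaf genes. The rule itself keeps the tissues from overlapping in any member.

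Solyc04g078650 (chromosome 4), from the same list of meristem and leaf-form genes, has no symbol in the table and is given by its ID. It had 0, 0, 0 and 1 count in trichome libraries 1 to 4, against 9.74, 12.9, 12.0 and 5.78 CPM in leaf libraries 1 to 4. Leaf library 4 was the lowest, as for T6.

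The 13 listed meristem and leaf-form genes did not move together. Of the 11 that are no members, 5 were tested, of which 3 were called lower and 2 higher in gland cells, and 6 had too few reads to be tested. CLV1, a receptor kinase that limits meristem size, fell in gland cells to 0.339 ± 0.133 CPM, against 21.4 CPM in leaf (log2 difference -5.77, adjusted p = 2.37e-06, edgeR). IAA9, a repressor of auxin responses that keeps leaves compound, was higher in gland cells, at 305.3 ± 17.3 CPM, against 189.0 CPM in leaf (log2 difference 0.94, adjusted p = 0.00086, edgeR). The other 3 listed KNOX genes, KN1, TKN3 and KN4, averaged at most 0.218 CPM in leaf and could not be members.

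YABBY genes encode transcription factors that shape the blade of leaves and other lateral organs. YABBY2A (Solyc06g073920, chromosome 6) had 1, 0, 0 and 0 counts in trichome libraries 1 to 4, against 44.0, 41.1, 40.4 and 37.8 CPM in leaf libraries 1 to 4. That is 0.0236% of its leaf level, with a 95% interval of 0.000598% to 0.132% (exact Poisson interval of the gland count). Its leaf libraries lay close together, at 40.8 ± 2.56 CPM (SD, n = 4).

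YABBY5B (Solyc12g009580, chromosome 12) had 0, 2, 2 and 1 counts in trichome libraries 1 to 4, against 51.5, 75.05, 71.1 and 41.1 CPM in leaf libraries 1 to 4. Gland cells held 0.0807% of its leaf mean of 59.7 ± 16.1 CPM, with an interval of 0.0262% to 0.188%. Leaf library 4 was again the lowest, as for T6 and for 52.2% of other leaf genes.

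Of 9 YABBY genes, 5 were leaf genes and 2 of these were members. YABBY5a, with 13 gland counts, and YABBY1b, with 15, missed the limit of 8 by a few reads. YABBY5a stood at 0.125 ± 0.0891 CPM in gland cells and 50.8 ± 13.8 CPM in leaf, and YABBY1b at 0.143 ± 0.116 CPM in gland cells and 23.7 ± 0.818 CPM in leaf (SD, n = 4 each). YABBY2, with 71 gland counts, kept 5.57% of its leaf level of 12.3 ± 1.94 CPM. All 3 of these were called lower in gland cells by edgeR, with log2 differences of -8.40 for YABBY5a, -7.13 for YABBY1b and -3.99 for YABBY2. YABBY1A averaged 0.519 CPM in leaf, and CRCA, CRCB and INO, which act in flowers, had no count in any library. The family list was drawn up after member values had been seen.

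**Figure D2:**
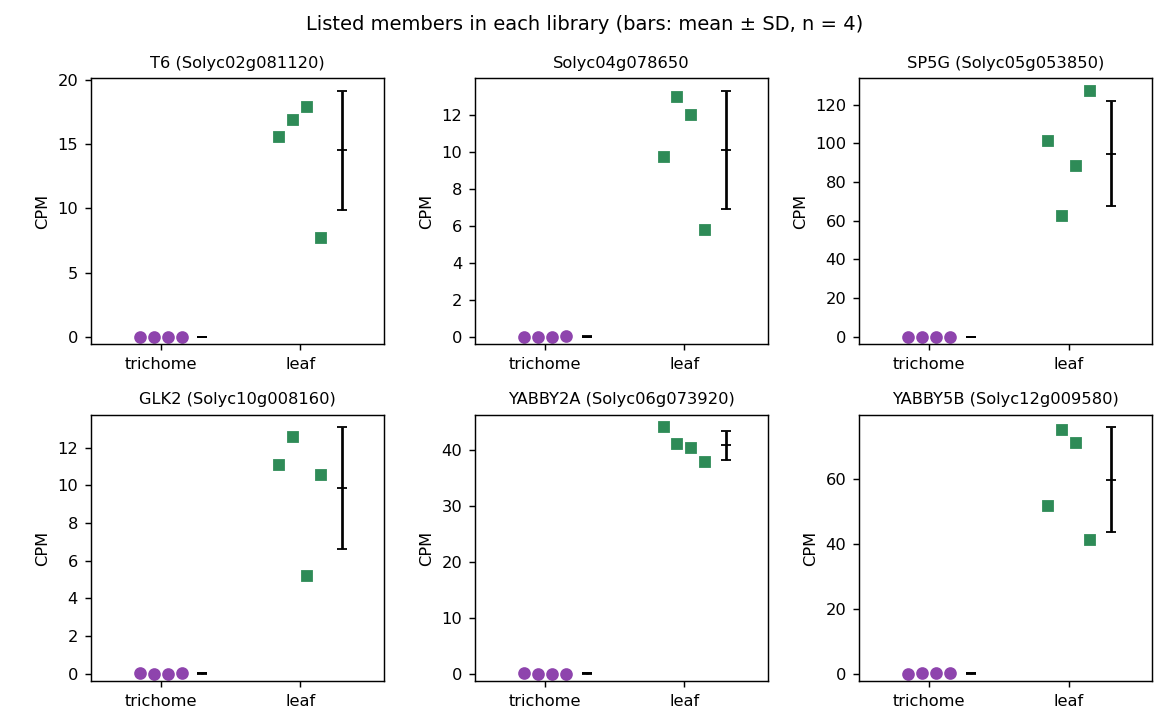
Level in CPM (linear axes) of the 6 listed members in the 4 trichome libraries (left in each panel) and the 4 leaf libraries (right), 1 point per library, with mean and SD as bars. Trichome libraries lie at or near 0 and leaf libraries between 5.21 and 127.2 CPM, and the rule itself excludes an overlap.

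GLK2 (Solyc10g008160, chromosome 10) encodes a Golden2-like factor that promotes chloroplast development and in tomato is best known for the green shoulder of the fruit. It had 1, 0, 0 and 1 count in trichome libraries 1 to 4, against 11.1, 12.6, 5.21 and 10.6 CPM in leaf libraries 1 to 4. Gland cells held 0.196% of its leaf mean of 9.86 ± 3.22 CPM, with an interval of 0.0237% to 0.707%. Leaf library 3 lay just above the limit of 5 CPM, so the membership of GLK2 rests on that library.

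Its relative GLK1 (Solyc07g053630), which serves leaf chloroplasts, showed the same shape at a higher leaf level but is no member. It had 7, 1, 4 and 7 counts in trichome libraries 1 to 4, against 171.0, 151.2, 180.3 and 135.3 CPM in leaf libraries 1 to 4. The 19 counts are 0.115% of its leaf mean of 159.5 ± 20.2 CPM, which lies within the interval of GLK2, so the data do not order the pair. GLK1 was called lower in gland cells (log2 difference -9.52, adjusted p = 3.12e-07, edgeR).

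SP5G (Solyc05g053850, chromosome 5) belongs to the FT family of flowering signals and represses flowering in long days. It had 1, 0, 1 and 3 counts in trichome libraries 1 to 4, against 101.1, 62.5, 88.2 and 127.2 CPM in leaf libraries 1 to 4. Gland cells held 0.0509% of its leaf mean of 94.8 ± 27.0 CPM, with an interval of 0.0165% to 0.119%. It was the only listed member among the 10 with the highest leaf level. Its relatives were low in leaf. SFT, the floral activator, averaged 0.527 CPM in leaf with no count in gland cells, and SP had no count in any library. SP6A averaged 0.227 CPM in leaf, also with no gland count. SP2G averaged 1.36 CPM in gland cells and 0.760 CPM in leaf, and was not called different (adjusted p = 0.130, edgeR).

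None of the listed stomatal and sucrose transport genes is a member. Of these 6, 5 were called lower in gland cells, where 38.5% of all tested genes were called lower. The stomatal gene FAMA is listed at 10 counts, though the table holds no symbol for its ID. All 3 stomatal genes were called lower in gland cells, and their summed level was 0.0758 to 0.419 CPM per trichome library and 25.3 to 55.0 CPM per leaf library. One of these 3, Solyc01g080050, was at 0 in every trichome library and averaged 2.29 CPM in leaf, so the leaf minimum alone kept it out. Solyc03g007410, with 16 gland counts, also missed that minimum, at 2.66 CPM in leaf library 4. SUT1, the sucrose transporter that loads phloem, had 165 gland counts and averaged 195.3 ± 53.2 CPM in leaf (SD, n = 4), so that gland cells held 0.814% of its leaf level. SUT4 fell to 0.186 CPM in gland cells, against 12.1 CPM in leaf, and SUT2 did not pass the test, at 19.6 CPM in gland cells and 25.7 CPM in leaf (adjusted p = 0.367, edgeR). Over all lists, 6 of 27 leaf genes were members, against 2.66% of all leaf genes. Some of the lists were drawn up after member values had been seen, so these shares cannot be compared.

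The most abundant members in leaf carry IDs only. Solyc06g006110 (chromosome 6) had 2, 0, 4 and 0 counts in trichome libraries 1 to 4, against 165.1, 224.3, 212.7 and 71.8 CPM in leaf libraries 1 to 4. Solyc05g051750 (chromosome 5) had 0, 2, 2 and 3 counts in trichome libraries, against 118.4, 138.1, 183.5 and 160.0 CPM in leaf libraries. Solyc03g097590 (chromosome 3) had 1, 2, 1 and 4 counts in trichome libraries, against 111.5 to 162.0 CPM in leaf libraries. Leaf library 4 stood well under the other 3 for Solyc06g006110, and was among the higher ones for the other two.

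Solyc05g008950, with 4 gland counts, averaged 108.1 ± 21.6 CPM in leaf, and Solyc06g051460, with 5, averaged 107.9 ± 29.6 CPM. Solyc08g081620, with 3 gland counts, averaged 92.5 ± 30.3 CPM in leaf, and Solyc03g114940, with 5, averaged 85.9 ± 25.8 CPM (SD, n = 4 each). Solyc10g085870 and Solyc07g008210 complete the highest 10 and are described with the members of large spread.

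The 45 members with no gland count averaged 5.78 to 93.1 CPM in leaf, with a median of 10.99 CPM. Computed against 3 counts over the pooled trichome libraries, the bound on how far they were lower in gland cells reached 3218-fold, with a median bound of 380-fold. The highest bound, that of Solyc07g008210, is 1877-fold without leaf library 2. Solyc12g057100 (chromosome 12) had the highest leaf minimum among them, at 36.0, 34.9, 40.2 and 33.9 CPM in leaf libraries 1 to 4, and was at least 1253-fold lower. Solyc01g099180 averaged 41.3 ± 12.0 CPM in leaf (at least 1428-fold lower in gland cells), Solyc03g097610 averaged 27.9 ± 5.54 CPM (at least 964.0-fold) and Solyc10g080920 averaged 27.7 ± 5.31 CPM (at least 957.9-fold). Of the 45, 18 had a leaf mean of 5 to 10 CPM and 19 of 10 to 20 CPM.

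Levels of single members differed to very unequal degrees among the 4 leaf collections. The coefficient of variation (CV, SD over mean) over leaf libraries was 3.65% to 113.5%, with a median of 23.2%, against a median of 19.4% in the other leaf genes. The members' median was the higher in each range of leaf level that holds members. It was 21.6% against 19.0% over all leaf genes at 5 to 10 CPM, 22.5% against 20.1% at 10 to 20 CPM, 26.3% against 19.2% at 20 to 50 CPM, 28.2% against 19.5% at 50 to 100 CPM and 23.7% against 20.2% at 100 to 200 CPM. With library sizes scaled by edgeR's TMM factors the medians were 24.4% for members and 16.1% for other leaf genes. Without leaf library 4 they were 18.6% and 16.4%, a narrower gap.

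The highest leaf library was at least 3 times the lowest in 36 members (10.4%), against 5.42% of other leaf genes, and at least 5 times in 5 members (1.45%), against 1.602%. Of the 36, 6, 7, 9 and 14 were highest in leaf libraries 1 to 4, and 4, 9, 9 and 14 were lowest in them. Of the other leaf genes with such a range, 6.59%, 39.7%, 24.0% and 29.7% were highest in leaf libraries 1 to 4. Each of the 4 collections was thus the highest for some of them.

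Among the 5 with the widest range, 3 stood out in leaf library 4. Solyc11g071290 had 0, 3, 1 and 4 counts in trichome libraries 1 to 4, against 5.88, 7.85, 9.94 and 49.0 CPM in leaf libraries 1 to 4. Solyc01g088160 had 0, 0, 0 and 4 counts in trichome libraries, against 13.5, 8.15, 11.3 and 59.2 CPM in leaf libraries. Solyc04g079230 had 0, 0, 4 and 1 counts in trichome libraries, against 14.3, 7.93, 24.5 and 68.3 CPM in leaf libraries. Without leaf library 4 their leaf means would be 7.89, 10.98 and 15.6 CPM, against 18.2, 23.0 and 28.8 CPM with it, in the order named. Their gland counts are too few to tell collections apart.

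The other 2 were high in other collections. Solyc07g008210 (chromosome 7) had no count in any trichome library, against 79.0, 209.4, 52.8 and 31.02 CPM in leaf libraries 1 to 4, which makes it at least 3218-fold lower in gland cells. Its leaf mean of 93.1 ± 80.0 CPM (SD, n = 4) would be 54.3 CPM without leaf library 2. Solyc10g085870 (chromosome 10) had 3, 1, 0 and 2 counts in trichome libraries, against 236.1, 149.3, 41.9 and 93.6 CPM in leaf libraries.

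At the other end, Solyc04g049080 (chromosome 4) was the steadiest member above a mean of 10 CPM. It had 5, 1, 0 and 0 counts in trichome libraries 1 to 4, against 23.7, 21.8, 22.7 and 23.4 CPM in leaf libraries 1 to 4, a CV of 3.70%. Solyc07g005680 at 23.1 CPM in leaf had a CV of 5.15%, and Solyc01g109230 at 10.7 CPM one of 5.46%.

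The collection in which a gene was highest differed between members and other leaf genes. Scaled to library totals, 27.2% of members were highest in leaf library 1, 24.3% in library 2, 25.5% in library 3 and 22.9% in library 4. In the other leaf genes these shares were 12.3%, 48.5%, 27.8% and 11.4%. With TMM-scaled library sizes 33.3%, 11.6%, 19.4% and 35.7% of members were highest in leaf libraries 1 to 4, against 17.5%, 23.3%, 29.0% and 30.3% of other leaf genes. Under both scalings leaf library 1 was more often the highest among members than among other leaf genes, and leaf library 2 less often, by counts that were not tested. The order of the 4 shares among members depends on the scaling. Leaf levels relative to the gene's own mean differed, in medians of members minus other leaf genes, by 0.14, -0.16, -0.07 and 0.07 on the log2 scale in leaf libraries 1 to 4, a contrast that no scaling of libraries changes. The gland gene TPS12, for a sesquiterpene synthase, averaged 6083 CPM in gland cells, while its leaf libraries 1 to 4 held 46.0, 83.9, 22.9 and 7.73 CPM. It was highest in leaf library 2, where the members' median stood lowest against the other genes, and next highest in leaf library 1, where the members' median stood highest. The part of remaining trichome material in the members' pattern was not tested.

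**Figure D3:**
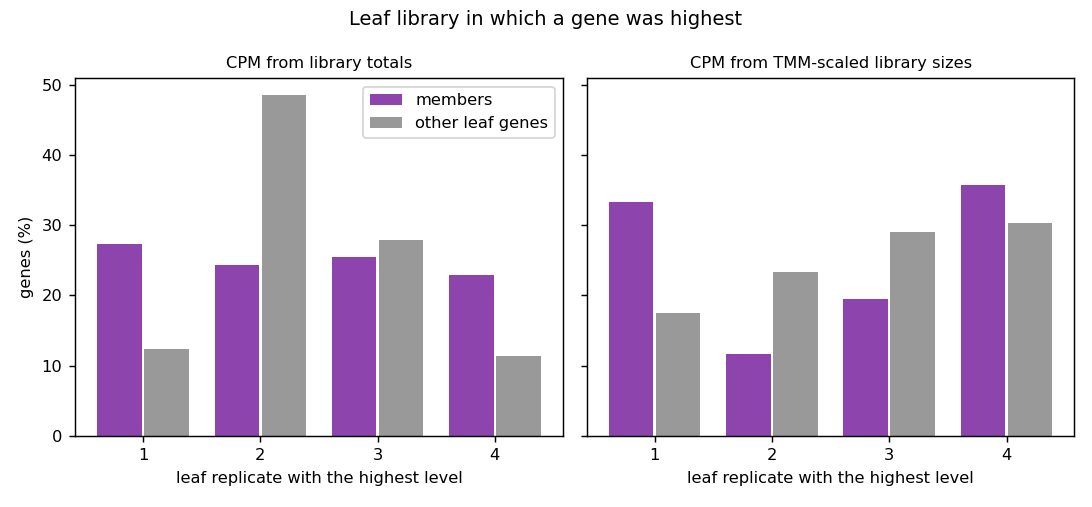
Percent of members and of other leaf genes whose highest leaf level was in each of leaf libraries 1 to 4, with library totals and with TMM-scaled library sizes. With library totals the members are nearly even, at 22.9% to 27.2%, and 48.5% of other leaf genes are highest in leaf library 2.

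Choosing the genes without a collection and reading their values in that collection gives measurements that the choice did not use. With collections 1 to 4 left out in turn and a limit of 6 counts over the other 3 trichome libraries, the rule chose 353, 362, 388 and 413 genes. In the trichome library left out, 84.7%, 89.8%, 76.3% and 79.9% of these had at most 2 counts, against 1.07%, 1.39%, 0.655% and 2.05% of the other leaf genes chosen the same way. In the leaf library left out, 98.3%, 94.5%, 96.6% and 87.2% reached 5 CPM. With collections 1 to 4 left out, 294 of 353, 307 of 362, 286 of 388 and 285 of 413 genes met both conditions. The gland CPM lay below the leaf CPM for all 353, 362, 388 and 413 genes. Apart from the shares with at most 2 counts, none of these values was computed for the other leaf genes, so nothing is read from them. The summed gland level of the chosen genes in the collection left out was 0.177%, 0.167%, 0.418% and 0.243% of the summed leaf level.

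The largest gland counts in libraries left out came mostly from collection 3. More than 10 counts in the trichome library left out were found in 1, 0, 16 and 1 genes for collections 1 to 4. The most extreme were Solyc07g049550, with 2, 0, 105 and 2 counts in trichome libraries 1 to 4 and a leaf mean of 8.43 ± 2.82 CPM, and its near neighbour ACO1 (Solyc07g049530). ACO1 encodes an ACC oxidase, the last enzyme of ethylene synthesis. ACO1 had 2, 0, 99 and 4 counts in trichome libraries 1 to 4, against 7.97, 9.45, 45.7 and 61.5 CPM in leaf libraries 1 to 4. Solyc00g323130 had 1, 1, 36 and 3 counts in trichome libraries and 45.4 ± 4.88 CPM in leaf (SD, n = 4). None of these 3 is among the 345, because trichome library 3 took them past the limit. ACO1 was named after its values had been seen.

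Members lay on all 12 chromosomes, as read from the chromosome number in the gene IDs, and 2 were on unplaced sequence. Chromosome 5 held the most, 42 of its 888 leaf genes (4.73%), which include SP5G and Solyc05g051750. The lowest shares were on chromosome 1, 28 of 1658 (1.69%), and chromosome 2, with T6, 26 of 1372 (1.90%). Over 12 other settings of the rule chromosome 5 was the highest in all 12, and the lowest was chromosome 1 in 6 and chromosome 2 in 6. On the other 9 chromosomes the share was 2.19% to 3.38%. Chromosome 5 thus held 12.2% of the members and 6.86% of the leaf genes. Of all genes on a chromosome, 22.4% were called lower in gland cells on chromosome 5 and 23.3% on chromosome 1. Along the chromosomes, divided into 5 equal stretches of ID order, the stretches held 81, 44, 49, 76 and 93 members. These were 2.96%, 2.44%, 2.26%, 2.69% and 2.77% of their leaf genes, so the middle held fewer members mostly as it held fewer leaf genes.

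**Figure D4:**
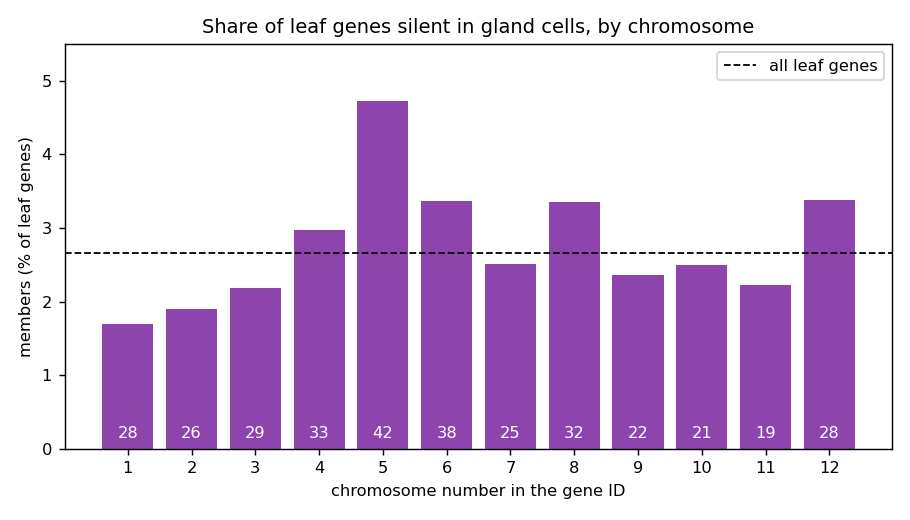
Percent of leaf genes that are members on each of the 12 chromosomes, with the number of members in the bars and the value over all leaf genes as a dashed line. Chromosome 5 stands highest at 4.73%, and chromosomes 1 and 2 lowest at 1.69% and 1.90%.

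**Figure D5:**
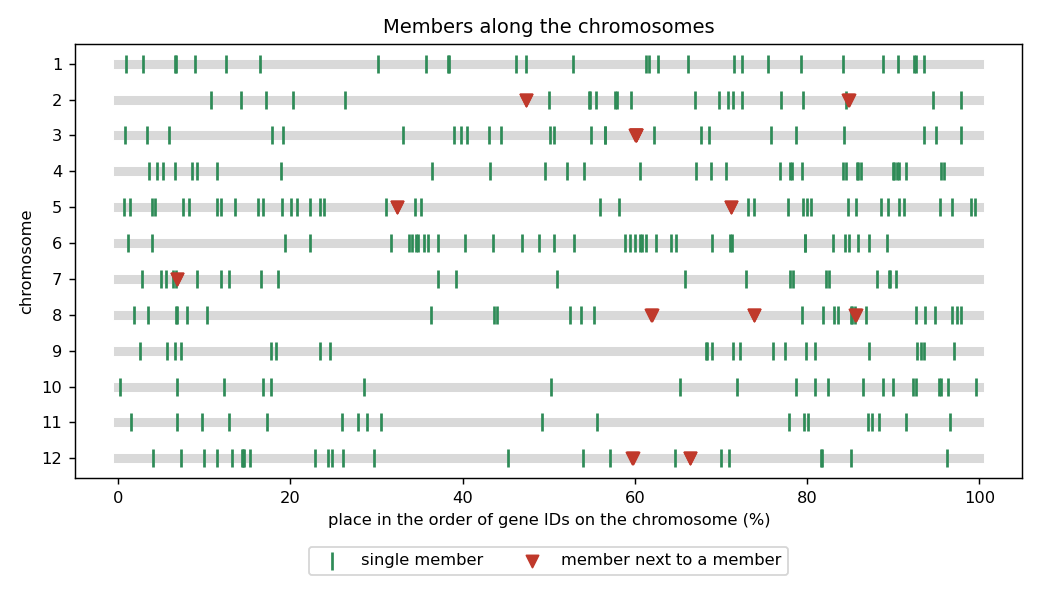
Place of each member along its chromosome in percent of the ID order, 1 tick per single member and a triangle for members beside a member. Ticks are fewer in the middle of several chromosomes, most plainly on chromosome 9, and the triangles mark 24 members in 11 runs.

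Most members stood alone among their neighbours. In ID order 24 members (6.96%) had another member directly beside them, in 10 pairs and 1 run of 4, and 55 had one within 5 places. Of the 351 neighbouring places held by leaf genes, 26 (7.41%) were members, against 2.66% of all leaf genes. The leaf genes beside members that were no members themselves held a median of 67.2% of their leaf level in gland cells (quartiles 23.0% and 129.8%, 322 genes), against 82.9% in all other leaf genes. Under 1% of leaf level were 22 of these 322 (6.83%), against 2.88% of other leaf genes. None of the 19 genes found with the tissues exchanged had another of them beside it, but 19 genes are too few for a comparison.

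The run of 4 lies on chromosome 3, from Solyc03g097580 to Solyc03g097610. Solyc03g097580 had 5 gland counts and 40.5 ± 19.1 CPM in leaf, Solyc03g097590 had 8 and 140.2 ± 23.8 CPM, Solyc03g097600 had 3 and 17.2 ± 3.01 CPM, and Solyc03g097610 had 0 and 27.9 ± 5.54 CPM (SD, n = 4). Within the run, leaf levels thus differed several-fold and leaf library 1 was the highest for Solyc03g097580 alone. The next gene before it, Solyc03g097570, had no gland count either but averaged only 2.91 CPM in leaf. Further out, Solyc03g097550 at 56.7% and Solyc03g097630 at 58.0% of leaf level were leaf genes well above the limit. Beyond the second of these, Solyc03g097650 had 5 gland counts and 6.41 ± 1.24 CPM in leaf, 0.752% of leaf, and missed the leaf minimum in at least 1 library.

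A pair on chromosome 8, Solyc08g079880 and Solyc08g079890, stood beside P69B (Solyc08g079870), which encodes a subtilisin-like protease known from defence. Solyc08g079880 had no gland count and 22.4, 9.80, 23.1 and 23.4 CPM in leaf libraries 1 to 4. Solyc08g079890 had 0, 2, 0 and 1 counts in trichome libraries, against 68.1, 22.8, 63.6 and 41.9 CPM in leaf libraries. Both were lowest in leaf library 2. P69B itself is no member, with 1, 5, 22 and 4 counts in trichome libraries 1 to 4, against 10.1, 20.5, 32.9 and 74.8 CPM in leaf libraries 1 to 4. The gene after the pair, Solyc08g079900, had no gland count and 3.41 ± 4.69 CPM in leaf. On the far side of P69B, Solyc08g079860 is a member again, with 1 gland count and 16.6 CPM in leaf, and Solyc08g079850 and Solyc08g079840 stood at 5.68% and 5.71% of leaf level. P69B was named after its values had been seen, and the files give the other genes of this stretch no name.

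The 2 pairs described are those with the highest summed leaf level of the 10. The other of them, Solyc08g076890 and Solyc08g076900, is also on chromosome 8. Solyc08g076890 had 6 gland counts and averaged 71.2 ± 41.2 CPM in leaf, and Solyc08g076900 had 3 and averaged 78.5 ± 7.94 CPM (SD, n = 4). The 2 differed in spread, with leaf values of 58.8, 33.0, 63.5 and 129.6 CPM for the first and 81.9, 88.1, 72.2 and 71.8 CPM for the second. The other 8 pairs are on chromosomes 2, 5, 7, 8 and 12. Neighbouring genes are often copies of each other, and how the authors' counting divides reads among near-identical copies is not given in the sources used here. Whether counting used strand is not given either, so overlapping neighbours could share reads. The levels of single genes in such stretches are uncertain for that reason.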

How the data were processed

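Messenger RNA was sequenced from 4 trichome and 4 leaf libraries. The deposited files hold raw read counts per gene, 1 file per library. Per the submitters' processing notes the tools were Trimmomatic, TopHat2, SAMtools and HTSeq, with no version recorded. The genome build, the annotation and the strand setting were not given in the sources used here. HTSeq's summary lines (ambiguous, unaligned and not uniquely aligned reads among them) held 21.1% ± 2.61 of all counts in trichome and 13.3% ± 0.829 in leaf libraries (SD, n = 4 each). They were left out of totals and tests, so multiply aligned reads count for no gene. CPM were computed from gene totals of 24596280 to 26514416 (trichome) and 19209754 to 34941715 (leaf). Python 3.11.15 and pandas 2.3.3 were used for descriptions.

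The test over all genes was edgeR's quasi-likelihood test (edgeR 4.0.16, R 4.3.3, TMM factors, filterByExpr, Benjamini-Hochberg adjusted p under 0.05), after the procedure had been tested on simulated data. DESeq2 1.42.0, RLE factors, no filter, a replicate block and left-out libraries were alternatives. No library pair agreed within sampling noise. The labels call the 4 collections independent, and p-values measure the spread between them. Sampling numbers were taken to pair libraries, because by protocol a collection's leaves and trichomes share plants. Deviations from group means correlated at 0.0997, 0.128, 0.176 and 0.157 between libraries of 1 number, and at -0.178 to 0.130 between others.

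The members and lists were chosen with earlier results of these data known. Named are listed members, the 10 highest in leaf, the 5 with no gland count and the highest leaf minimum, the 3 widest and 3 narrowest in spread (mean of at least 10 CPM), the 3 longest runs (pairs of equal length ordered by summed leaf level) and the genes at the limits. The lists of YABBY, further FT and KNOX genes, P69B and ACO1 were added after values had been seen. None of the file IDs is in the RefSeq table used (assembly SLM_r2.1). Of 49 listed names 38 have a symbol there, and all 38 lay on the same chromosome within 5 percentage points of relative position. That range holds many genes, so the check cannot tell a named gene from its neighbours. No genome or sequences were used.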

Additional observations from a re-analysis of the deposited data

Results flagged for a closer look

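Dixon's test at the 95% level was applied to the 4 leaf libraries of each named member (36 groups) and, in each tissue, to the members' summed counts, summed CPM and number with a count (6 groups). It singled out 4 of 42 groups of values. Chance gives about 1 in 20, but the named members include 3 chosen for their wide spread, among them Solyc11g071290 and Solyc01g088160, so the 2 numbers cannot be compared. Solyc11g071290 had 49.0 CPM in leaf library 4, against 5.88 to 9.94 CPM in its other leaf libraries. Solyc01g088160 had 59.2 CPM in leaf library 4, against 8.15 to 13.5 CPM in the others. Solyc03g097580, the first of the run of 4 on chromosome 3, had 68.8 CPM in leaf library 1, against 28.8 to 34.9 CPM in the others. Solyc08g079880, beside P69B, had 9.80 CPM in leaf library 2, against 22.4 to 23.4 CPM in the others. Without the library named, the leaf mean is 7.89 CPM for Solyc11g071290, 10.98 CPM for Solyc01g088160, 31.1 CPM for Solyc03g097580 and 23.0 CPM for Solyc08g079880. All 4 leaf libraries of each gene stay above 5 CPM, as the rule requires of every member.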

How the results depend on the processing

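The number of members follows the limits of the rule. It was 649 with a leaf minimum of 2 CPM, 174 with 10 CPM and 45 with no gland count allowed, against 345. It stayed within 1.5 times under the other planned settings. It was 231 with a limit of 4 gland counts, 488 with a limit of 16 and 517 with the leaf minimum set on the leaf mean. It was 296 with HTSeq's summary lines in the totals, 312 with TMM-scaled sizes (307 of them shared) and 353 to 413 with 1 collection left out. The median leaf level was 13.7 CPM with TMM-scaled sizes and 14.5 to 15.1 CPM with 1 leaf library left out, and the median CV was 18.6% to 24.9% with 1 leaf library left out. Members beside a member numbered 55 within 5 places and 47 with a limit of 16 gland counts, against 24. Genes called lower in gland cells numbered 7184 to 8180 with libraries left out, 8126 with RLE factors, 8348 with library size alone, 8849 with no filter and 9234 with DESeq2, against 7855. With the replicate block, which pairs libraries of a collection, 7753 were called lower. Chosen after seeing the data, other limits and left-out collections kept chromosome 5 the highest in its share of members (0.676% to 5.72%). These sets of genes overlap widely. Chromosome 1 ranged between 0.302% and 3.58% and gave its lowest place to chromosome 2 in 6 of 12 settings. Members highest in leaf library 2 numbered 40 with TMM-scaled sizes, against 84, and leaf library 4 went from the lowest share of members to the highest. Depth limits the gland levels: at 1 to 8 counts over 4 libraries members cannot be ranked among themselves.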
